A study of Mus musculus with 4 samples.

Results

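The 10 genes described are the Notch receptors Notch1, Notch2, Notch3 and Notch4, the ligands Jag1, Jag2, Dll1 and Dll4, and the target genes Hes1 and Hey1, taken by name from a table of 43346 genes. All 10 were found once each. They were compared between 2 libraries of lung polyadenylated RNA from mice carrying an IL-33 transgene, given as the genotype IL-33 over-expression (named B and E), and 2 libraries from control mice (named D and F). IL-33 is an alarm cytokine of the IL-1 family. The sources used here do not give the strain, the age, the promoter of the transgene or how many mice each library holds, so every p-value measures the spread between these libraries only.

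Notch signalling passes between touching cells. A ligand of the Jagged or Delta-like type on one cell binds a Notch receptor on its neighbour, the receptor is cut by an ADAM protease and then by gamma-secretase, and its freed intracellular part joins the DNA-binding protein RBPJ and a Mastermind coactivator to switch on genes such as those of the HES and HEY repressors. In the lung the pathway is known for setting the balance of secretory and ciliated cells in the airway, for arterial identity and sprouting in endothelium, where Dll4, Notch1 and Notch4 act, and for the mural cells around vessels, where Notch3 acts.

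Gene counts summed to between 76120696 (B) and 87723745 (E), and the lowest count of any member was 1524 (Dll1 in B). Sampling noise was thus small beside the widest differences between libraries, but not beside the narrowest ones within a genotype. Il33 stood at 1723 and 874 CPM (counts per 1000000, on library sizes scaled by the trimmed mean of M values) in transgenic libraries B and E, against 117 and 108 CPM in control libraries D and F (log2 fold change 3.53, SE 0.37), which fits the genotype labels. The samples are labelled lung epithelial cells, while the series title speaks of lung tissue. Markers of other cells were plainly present: the 10 endothelial markers, with 0 of them undetected, summed to 4683 and 7293 CPM in B and E and to 6107 and 7957 CPM in D and F. The 8 markers of pericytes and smooth muscle, all detected, summed to 772 and 1347 CPM in B and E and to 949 and 1551 CPM in D and F. The 8 alveolar type 2 markers summed to 58529 and 38299 CPM in B and E and to 48254 and 34892 CPM in D and F. Eif2s3y, Ddx3y, Uty and Kdm5d lie on the Y chromosome. They summed to 1.43 and 23.2 CPM in B and E and to 258 and 123 CPM in D and F. Xist, an X-linked gene expressed in female cells, had 698 and 811 CPM in B and E, against 1.19 and 356 CPM in D and F. The mix of sexes thus moved with genotype. It also differed within each genotype. Control F held both Xist and Y-linked RNA while D held almost no Xist. Transgenic E held Xist and some Y-linked RNA, while B held almost no Y-linked RNA. In bulk RNA, fewer cells of a type and less RNA per cell cannot be told apart.

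Across all genes, edgeR's quasi-likelihood test called 0.0% of 20872 genes at an adjusted p of 0.05, and 0 of the 10 members (adjusted p = 1 for each). At an unadjusted p under 0.05 it picked 269 genes (1.29%), 1 of them a member (Dll4), and DESeq2 called 1 gene (0.00479%), Il33. The quasi-likelihood test of edgeR did not call even Il33 (log2 fold change 3.53, unadjusted p = 0.000206). A count of 0 called therefore does not show that the members were unchanged. For 3 members, Dll4, Dll1 and Hes1, both transgenic libraries lay below both controls, an order seen in 12% of all genes tested. For 1 member, Notch2, both lay above, an order seen in 11.9%. The other 6 overlapped between genotypes. With 2 libraries against 2, an exact two-sided permutation test of a single gene cannot go below 0.333.

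The upstream sequences of 4 of the genes whose libraries did not overlap are given here for reference beside their values: the ligands Dll4 and Dll1, the feedback inhibitor Nrarp described further on, and, going the other way, Notch2. Each is the 250 bases before a RefSeq start, on the GRCm38.p6 build and the gene's own strand, at chr2:119325534-119325783 (plus) for Dll4, chr17:15376933-15377182 (minus) for Dll1, chr2:25180508-25180757 (plus) for Nrarp and chr3:98013288-98013537 (plus) for Notch2. Capitals mark the N-box, CACNAG on either strand, which HES repressors bind.
Dll4: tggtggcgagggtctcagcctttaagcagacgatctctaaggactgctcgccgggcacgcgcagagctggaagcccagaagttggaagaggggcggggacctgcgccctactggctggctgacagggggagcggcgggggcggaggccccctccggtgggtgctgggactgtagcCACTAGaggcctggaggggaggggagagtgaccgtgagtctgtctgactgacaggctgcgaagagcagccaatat
Dll1: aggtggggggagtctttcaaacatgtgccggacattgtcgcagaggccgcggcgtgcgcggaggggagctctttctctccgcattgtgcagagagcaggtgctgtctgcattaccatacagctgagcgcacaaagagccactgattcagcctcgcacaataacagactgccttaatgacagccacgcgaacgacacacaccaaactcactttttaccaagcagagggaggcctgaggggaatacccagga
Nrarp: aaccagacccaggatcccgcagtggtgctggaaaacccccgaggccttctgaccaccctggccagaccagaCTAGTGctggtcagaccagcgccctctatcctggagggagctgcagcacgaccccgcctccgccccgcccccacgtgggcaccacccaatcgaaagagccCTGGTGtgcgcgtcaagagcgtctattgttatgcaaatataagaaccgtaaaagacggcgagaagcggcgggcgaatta
Notch2: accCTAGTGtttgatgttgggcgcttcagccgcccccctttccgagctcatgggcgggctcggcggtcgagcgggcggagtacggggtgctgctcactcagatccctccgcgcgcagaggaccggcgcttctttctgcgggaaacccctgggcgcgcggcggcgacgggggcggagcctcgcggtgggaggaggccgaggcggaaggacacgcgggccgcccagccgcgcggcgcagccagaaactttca
The letters of the N-box occurred once in the Dll4 window, starting 75 bases before the start, once in that of Notch2 (247 bases before), at 2 places in that of Nrarp (179 and 79 bases before) and at 0 places in that of Dll1. Of all 32851 RefSeq windows of this length, 36.67% held it. The RBPJ core, TGGGAA on either strand, was in 0 of these 4 windows and in 21.59% of all windows. RefSeq windows were at hand for 8 members, all but Hes1 and Hey1, and 4 of the 8 held an N-box and 0 an RBPJ core. A match of letters is a description and not a binding site.

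Per length, the target Hes1 was the most abundant member and the ligand Dll1 the least. The deposited RPKM (reads per kilobase of gene length and per 1000000 reads) of Hes1, a repressor that many pathways besides Notch can induce, ran from 34.0 to 39.9 over the 4 libraries and did not overlap the next, Dll4, at 18.9 to 30.0. From Dll4 down, Jag2 (mean 20.1 RPKM), Jag1 (20.02), Notch4 (19.1), Notch1 (17.6), Notch3 (15.5) and Hey1 (13.6) each overlapped their neighbours in the order. Below a gap came Notch2, at 6.32 to 7.78 RPKM, and Dll1, at 3.85 to 6.39 RPKM, which overlapped each other. The middle of this order depends on the gene model: per length of the longest GENCODE protein-coding transcript, a choice made after the data were seen, Notch1 moved up to rank 3 (mean 26.4) and Jag2 down to rank 7 (15.99), while Hes1, Dll4, Notch2 and Dll1 kept ranks 1, 2, 9 and 10.

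**Figure D1:**
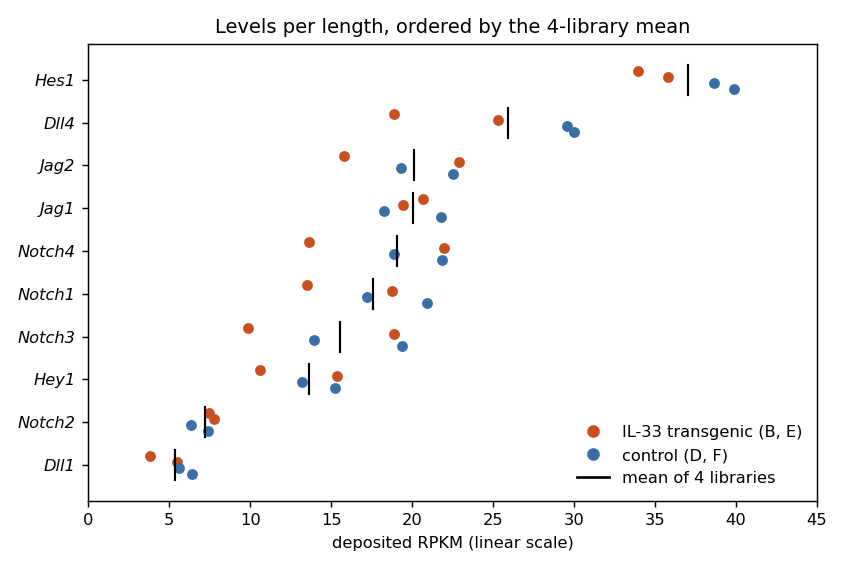
Deposited RPKM (x axis, linear) of the 10 members (rows, ordered by the mean of the 4 libraries, black ticks), with 1 point per library, transgenic in orange and control in blue. Hes1 stands alone on the right at 34.0 to 39.9 RPKM, and Notch2 and Dll1 lie below 8 RPKM in every library.

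Among the ligands, the Delta-like genes had lower values in transgenic libraries and the Jagged genes overlapped. Dll4 (ENSMUSG00000027314, chromosome 2, 119325784 to 119335962, GRCm38), the Delta-like ligand of arterial and sprouting endothelium, stood at 90.5 and 117 CPM in transgenic libraries B and E, against 142.0 and 139.9 CPM in control libraries D and F. Both transgenic libraries were lower, and E lay closer to the controls than B did. It averaged 103.8 ± 18.9 CPM over the transgenic and 140.9 ± 1.52 CPM over the control pair (SD, n = 2 each), a fold of 0.737 (log2 fold change -0.44, SE 0.15). This was the smallest p among the members (unadjusted p = 0.0325 in edgeR's quasi-likelihood test, adjusted p = 1). Without library B the log2 fold change was -0.27, and without E it was -0.65.

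Dll1 (ENSMUSG00000014773, chromosome 17, 15367354 to 15376872), a Delta-like ligand, had 20.2 and 27.7 CPM in B and E, against 29.6 and 32.6 CPM in D and F. The groups did not overlap, but E and D were only narrowly apart. Its log2 fold change was -0.38 (SE 0.18, edgeR unadjusted p = 0.0883), -0.17 without B and -0.64 without E. Jag2 (ENSMUSG00000002799, chromosome 12, 112908590 to 112929495), a Jagged ligand also known from endothelium, had 79.6 and 111 CPM in B and E, against 97.9 and 111 CPM in D and F (log2 fold change -0.13, SE 0.19). Here B was the lowest library and E lay with F. Jag1 (ENSMUSG00000027276, chromosome 2, 137081456 to 137116644), the Jagged ligand of airway epithelium and smooth muscle, had 149.5 and 136.0 CPM in B and E, against 132.9 and 153.5 CPM in D and F (log2 fold change -0.00439, SE 0.12). Its libraries interleaved, and the highest exceeded the lowest by a factor of only 1.16. Within a library, the Dll4 level relative to the Jag1 level (both RPKM) was 0.915 in B and 1.30 in E, against 1.62 in D and 1.38 in F. Dll4 thus exceeded Jag1 per length in every library but B, and the ratio was lower in both transgenic libraries. Dll4 on its own was already lower in both, and how often other gene pairs part the genotypes was not computed.

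Among the receptors, Notch2 had higher values in transgenic libraries, and the other 3 overlapped with B lowest. Notch2 (ENSMUSG00000027878, chromosome 3, 98013538 to 98150367), the main receptor in airway secretory cell fate, stood at 97.3 and 98.2 CPM in B and E, against 82.8 and 93.7 CPM in D and F. The transgenic pair agreed closely, and D was the low library. Its log2 fold change was small (0.15, SE 0.11, edgeR unadjusted p = 0.228), and it was 0.06 without D, 0.24 without F and -0.08 (SE 0.32) with the share of Y-linked counts as a covariate. Notch1 (ENSMUSG00000026923, chromosome 2, 26457903 to 26516663), a receptor of endothelium and many other cells, had 239 and 321 CPM in B and E, against 306 and 360 CPM in D and F (log2 fold change -0.25, SE 0.19). Transgenic library E lay between the controls. Notch4 (ENSMUSG00000015468, chromosome 17, 34564268 to 34588503), a receptor largely of endothelium, had 137 and 213 CPM in B and E, against 190 and 213 CPM in D and F (log2 fold change -0.20, SE 0.23). Notch3 (ENSMUSG00000038146, chromosome 17, 32120820 to 32166880), the receptor of pericytes and smooth muscle, varied most of the 10, with 98.9 and 182 CPM in B and E, against 140 and 189 CPM in D and F (log2 fold change -0.23, SE 0.32). For Notch3 and Notch4 the sign turned without library B (0.15 and 0.08), and for Notch3 also without F (0.01). Per length, the level of Notch2 relative to Notch1 (both RPKM) was 0.551 in B and 0.415 in E, against 0.366 in D and 0.353 in F, higher in both transgenic libraries. Notch2 on its own was already higher in both, and again no share over other gene pairs was computed.

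Of the targets, Hes1 had lower values in both transgenic libraries by a small margin, and Hey1 overlapped. Hes1 (ENSMUSG00000022528, chromosome 16, 30064384 to 30067796) had 86.0 and 87.7 CPM in B and E, against 98.2 and 98.3 CPM in D and F. Both pairs agreed to within 2 CPM, and the gap between them was larger than either. At 7913 and 8374 counts in D and F, counting alone gives a spread wider than that of the control pair. The small SD of the controls thus does not measure how well libraries replicate. It averaged 86.8 ± 1.18 CPM over the transgenic and 98.2 ± 0.0811 CPM over the control pair (SD, n = 2 each), a fold of 0.884 (log2 fold change -0.18, SE 0.09, edgeR unadjusted p = 0.109, adjusted p = 1). Leaving out any 1 library moved the log2 fold change only between -0.20 and -0.16. Hey1 (ENSMUSG00000040289, chromosome 3, 8663359 to 8667256), a repressor induced by Notch in arterial endothelium, had 43.0 and 60.2 CPM in B and E, against 53.9 and 60.3 CPM in D and F (log2 fold change -0.15, SE 0.18). Per length, the level of Hes1 relative to Hey1 (both RPKM) was 3.20 in B and 2.33 in E, against 2.92 in D and 2.61 in F, and overlapped. For Hey1, E and F were level, and without library B the sign turned (0.08), as it did for Jag2 (0.10).

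**Figure D2:**
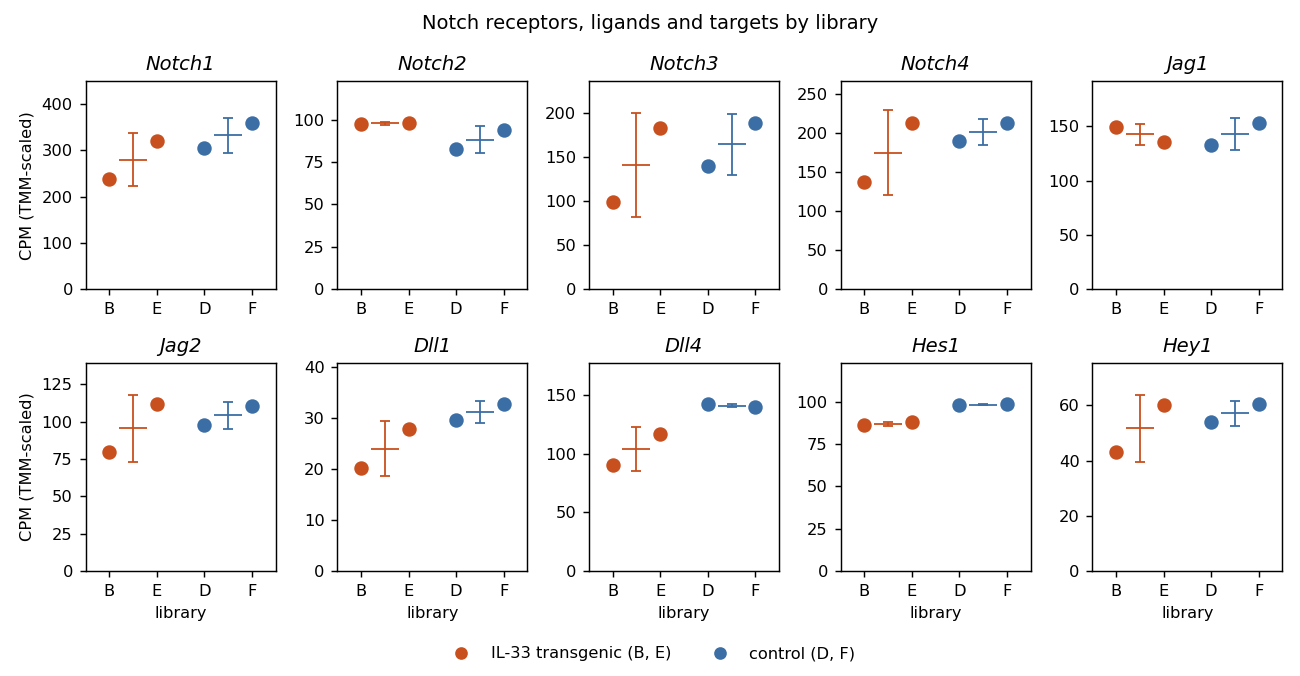
CPM (y axes, each from 0) of each member in transgenic libraries B and E (orange) and control libraries D and F (blue). Horizontal marks and bars are the group mean ± SD (n = 2). Dll4, Dll1 and Hes1 have both orange points below both blue ones and Notch2 has both above, while B is the lowest point for 8 of the 10 genes.

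No other gene of the pathway passed the test either. Of 50 further Notch pathway genes 49 were tested (the target gene Hes5 was near 0), and 0 were called. Of the 49, 17 had log2 fold changes above 0 (median -0.04), where 49.6% of all genes tested lay above 0 (median 0.00). Both transgenic libraries lay below both controls for 4 genes and above for 3, where 12% and 11.9% of all genes did so. By role, 2 of 4 ligand-like genes lay above 0 (median -0.08), 0 of 5 receptor-glycosylating enzyme genes (-0.15), 2 of 5 genes of ligand endocytosis (-0.04), 6 of 10 genes of receptor cleavage (0.04), 3 of 7 of the nuclear complex (-0.02), 0 of 5 corepressors (-0.01), 4 of 9 genes of turnover and inhibition (-0.09) and 0 of the 4 other Hes and Hey genes tested (-0.13).

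Nrarp, a Notch target whose product limits the signal by acting on the RBPJ complex, had the smallest p of these (edgeR unadjusted p = 0.0397, adjusted p = 1). It had 34.9 and 40.1 CPM in B and E, against 50.6 and 44.7 CPM in D and F (log2 fold change -0.35, SE 0.13), and this difference was -0.07 (SE 0.32) in the fit with the Y-linked covariate. The groups did not overlap, although the spread within each genotype exceeded the gap between E and F. The other genes with both transgenic libraries lower were Neurl3 (log2 fold change -0.27, SE 0.12), of a family of ubiquitin ligases, the Deltex gene Dtx1 (-0.26, SE 0.21), scarce at 1.83 to 2.32 CPM, and the ligand ubiquitin ligase gene Mib2 (-0.09, SE 0.10). Those with both higher were the presenilin gene Psen2 (0.15, SE 0.11), whose product is a catalytic subunit of gamma-secretase, the ligand ubiquitin ligase gene Mib1 (0.11, SE 0.10) and the protease gene Adam17 (0.07, SE 0.10). The most abundant per length were Ctbp1, a corepressor (-0.08, SE 0.11), Adam10, the protease of the first activating cut (0.01, SE 0.11), and Aph1a, of gamma-secretase (-0.15, SE 0.13). Rbpj itself, named after its values were seen, had 50.1 and 52.1 CPM in B and E, against 51.8 and 51.6 CPM in D and F (log2 fold change -0.02, SE 0.09).

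**Figure D3:**
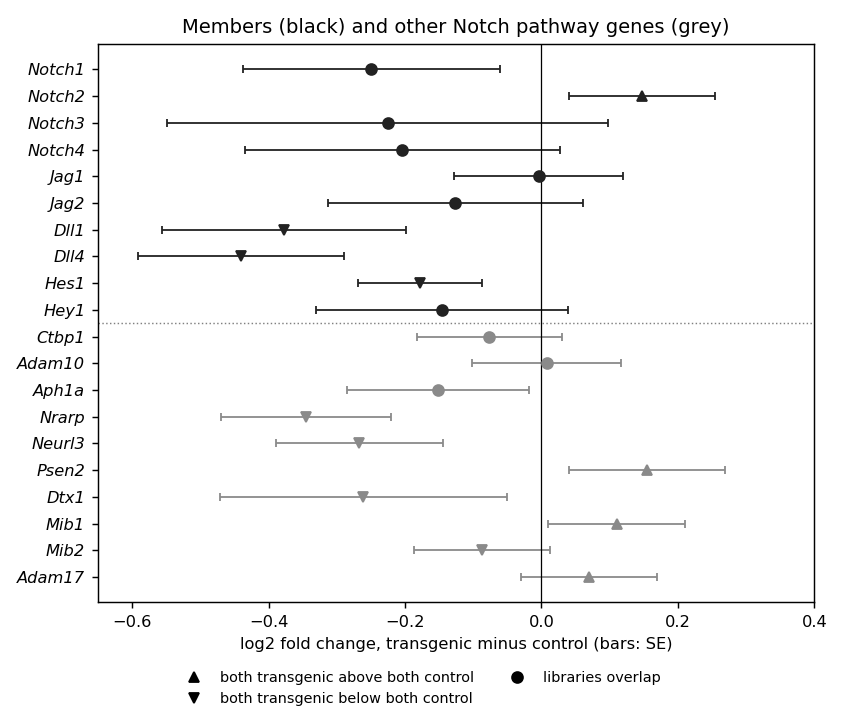
Log2 fold change, transgenic minus control (x axis, bars SE), of the 10 members (black) and 10 named pathway genes (grey). Triangles mark genes whose libraries did not overlap: Dll4 (-0.44), Dll1 (-0.38), Nrarp (-0.35), Neurl3, Dtx1, Hes1 and Mib2 to the left, Notch2, Psen2, Mib1 and Adam17 to the right.

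Set against the endothelial markers of the same library, 7 members varied less between libraries and 3 varied more. The share of all genes that would vary less when set against them was not computed, so the 7 cannot be judged against it. Library B was the lowest of the 4 for 8 of 10 members, where it was lowest for 33.9% of all genes tested. It was also the lowest for all 10 endothelial, all 8 pericyte and smooth muscle and all 7 fibroblast markers. Of the 8 alveolar type 2 markers it was the lowest for 0. Other epithelial lists were mixed, with B the lowest for 4 of 6 goblet, 3 of 6 basal and 2 of 6 neuroendocrine markers. It was the lowest for 1 of 6 club, 1 of 7 alveolar type 1 and 0 of 7 ciliated markers. The goblet markers summed to 24.3 and 138 CPM in B and E, against 102 and 162 CPM in D and F. The summed endothelial markers differed 1.70-fold between the highest and the lowest library. Divided by that sum, a scale chosen with the values in view, the range over the 4 libraries narrowed to 1.16-fold for Notch1 (1.504-fold in CPM), 1.16-fold for Notch4 (1.56), 1.18-fold for Notch3 (1.91), 1.21-fold for Hey1 (1.40), 1.22-fold for Jag2 (1.40), 1.28-fold for Dll1 (1.62) and 1.45-fold for Dll4 (1.57). It widened for Hes1 to 1.53-fold (1.14 in CPM), Jag1 to 1.71-fold (1.16) and Notch2 to 1.76-fold (1.19). In CPM these 3 members stayed within 1.19-fold over the libraries while the endothelial sum did not.

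Notch4 amounted to 2.92% of the summed endothelial markers in B and 2.92% in E, against 3.11% in D and 2.68% in F. Notch3 amounted to 12.8% of the summed pericyte and smooth muscle markers in B and 13.5% in E, against 14.8% in D and 12.2% in F. Neither ratio set the genotypes apart. Notch3 ranged 1.21-fold on the pericyte and smooth muscle scale, against 1.18-fold on the endothelial one. Dll4 per endothelial marker was 1.93% in B and 1.61% in E, against 2.33% in D and 1.76% in F, so that B lay above F and the groups overlapped. On this scale 0 of 10 members had groups that did not overlap, and the log2 difference of Dll4 was -0.20 and that of Hes1 0.08. The share of all genes without overlap was not computed on this scale, so the 0 cannot be judged against it. Nrarp per endothelial marker was 0.746% and 0.550% in B and E, against 0.829% and 0.561% in D and F. The summed levels of immediate-early and leukocyte genes overlapped between genotypes, while some single genes did not. Of 10 immediate-early genes, which tissue dissociation can induce, 5 had both transgenic libraries below both controls, an order seen in 12% of all genes (median log2 fold change -0.14), and their sum was 10239 and 8330 CPM in B and E, against 9771 and 10282 CPM in D and F. Of 8 leukocyte markers tested (median 0.66), 3 had both transgenic libraries above both controls, an order seen in 11.9% of all genes. They were Ptprc, Cd3e and Itgam. Ptprc had 20.6 and 30.0 CPM in B and E, against 8.21 and 16.5 CPM in D and F. The sums over all 9 were 815 and 803 CPM in B and E, against 847 and 727 CPM in D and F. Most of each sum was Lyz2 (747 and 714 CPM in B and E, 801 and 670 CPM in D and F), so it says little about the other markers. No gene of either list was called. The part of the vascular, fibroblast, immediate-early and leukocyte genes and of the mix of sexes in the members' differences between genotypes was not tested.

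**Figure D4:**
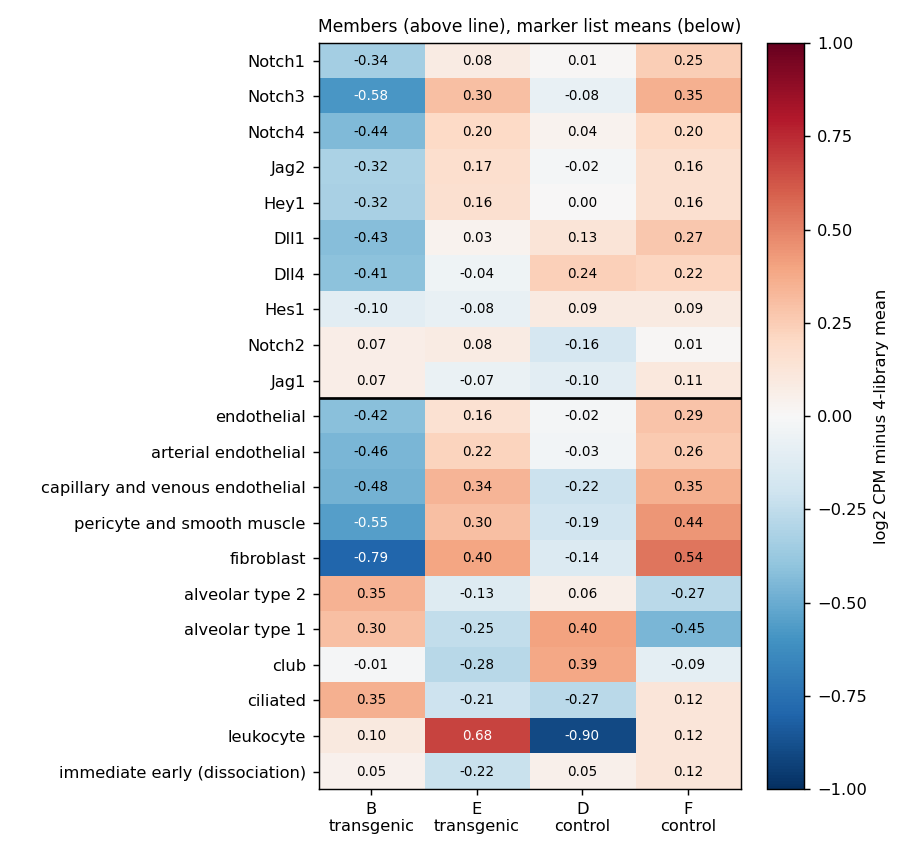
Log2 CPM minus the mean of the 4 libraries for each member (above the line) and averaged over the genes of 11 of the 14 marker lists (below), with libraries in columns, transgenic first. Notch3 (-0.58 in B), Notch4 (-0.44), Dll1 (-0.43) and the endothelial mean (-0.42) share a low B, whereas Notch2 and Jag1 (0.07 each in B) do not. The goblet, basal and neuroendocrine lists are not drawn (means in B -0.98, -0.37 and 0.13).

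**Figure D5:**
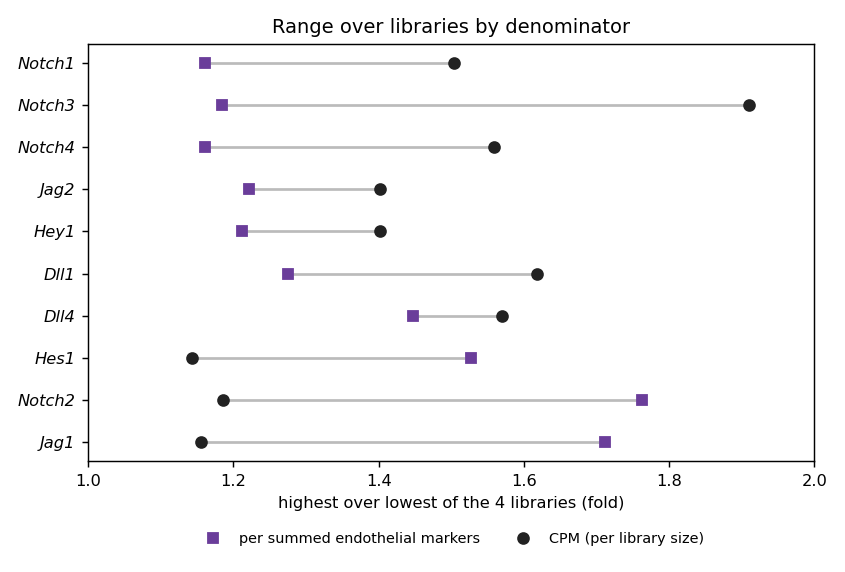
Ratio of the highest to the lowest of the 4 libraries (x axis, fold) for each member, in CPM (circles) and relative to the summed endothelial markers (squares). The square lies left of the circle for 7 members, by most for Notch3 (1.18 against 1.91), and right of it for Hes1, Notch2 and Jag1. The share over all genes was not computed.

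Among 137 pathway and marker genes averaging at least 1 CPM, those nearest to each member were found by the root mean square difference of centred log2 CPM over the 4 libraries, a description that rests on 4 points sharing the same libraries. The lists drawn on included 10 endothelial, 7 arterial and 7 capillary and venous endothelial markers. How often other genes lie nearest to such markers was not computed. The nearest were endothelial markers for Notch1 (Esam, 0.02) and Dll1 (Egfl7, 0.03). They were capillary and venous markers for Notch4 (Plvap, 0.03), Jag2 and Hey1 (Nr2f2 for both, 0.02 and 0.01). For Notch3 it was the pericyte and smooth muscle marker Des (0.04), with Hey2 (0.07) and the endothelial marker Kdr (0.07) next. For Notch2 it was the acetyltransferase gene Ep300 (0.03), for Hes1 Mib2 (0.06) and for Jag1 the neuroendocrine marker Syp (0.02). For Dll4 it was the goblet marker Agr2 (0.04), with the immediate-early gene Nr4a1 (0.09) and the endothelial marker Egfl7 (0.09) next. Between members, Jag2 and Hey1 lay closest (0.01), and the member nearest to Dll4 was Dll1 (0.07).

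Some counts may be shared with overlapping genes, since the sources used here do not say whether counting used strand. Dll4 overlaps Gm14207 on the opposite strand, which had 767 and 973 counts in B and E and 1055 and 1196 counts in D and F, against 6835 to 11914 for Dll4. Dll1 overlaps A930024N18Rik (366 to 585 counts), Notch3 overlaps Gm17276 (639 to 1389) and Notch1 overlaps 0610009E02Rik (2068 to 3686) and Gm13568 (567 to 901), all on the opposite strand. Genes inside Notch4 (Gm20462) and Jag2 (Mir6941) had at most 18 counts. Jag1, Hes1 and Hey1 overlap no other gene in GENCODE M21.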

How the data were processed

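Per the labels' protocols, polyadenylated RNA was prepared with a Qiagen RNeasy kit. TopHat2 (version 2), Bowtie (version 1) and featureCounts (version 1) were used on mm10, also called GRCm38, per the submitters' processing notes. Annotation release, strand setting and handling of multiply matching reads: not given in the sources used here. The authors deposited raw whole-number counts per gene and, for each, an RPKM computed on a deposited gene length. The gene counts summed to 80.3% to 82.7% of the totals behind the RPKM.

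Genes passing filterByExpr (counts of at least 10, total of at least 15) numbered 20872 and were scaled by TMM. Transgenic and control libraries were compared by the quasi-likelihood test of edgeR 4.0.16 (R 4.3.3, legacy setting) without covariates, with p-values adjusted by Benjamini-Hochberg at 0.05. An SE is the log2 fold change over the root of F. The fit was also run on simulated counts with the same dispersion for every gene, which was not that of these data. That run checks the code and does not show what the test can call here. All library pairs differed by more than sampling noise (chi-square per gene 18.3 or more).

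The members, gene lists, design and most alternatives were chosen with earlier results of these data known. Named are all members and, of the other pathway genes, the 3 most abundant by RPKM and those whose groups did not overlap (at most 12). Alternatives were DESeq2 size factors, dropping the filter or requiring 1 CPM in 2 libraries and a total of 20, leaving out each library, DESeq2 1.42.0, limma-voom (limma 3.58.1), edgeR without the legacy setting, a term setting B and D apart from E and F, and the Y-linked share as covariate. Promoters are RefSeq's (GRCm38.p6), overlaps and transcript lengths GENCODE M21's (GRCm38).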

Additional observations from a re-analysis of the deposited data

How the results depend on the processing

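Under every alternative run, 0 members and 0 other pathway genes were called. Across all genes DESeq2 called 1 higher, and with 1 library left out 0 to 5 were higher (2 without B, 3 without E, 5 without F) and 0 to 12 lower (12 without E). The number of members above 0 was 1, but 0 with the Y-linked share as covariate, 6 relative to the endothelial markers and 1 to 5 with 1 library left out. Dll4, Dll1, Hes1, Notch1 and Nrarp kept their sign in every fit with a test; with 1 library left out Dll4 ran from -0.65 to -0.27, Dll1 from -0.64 to -0.17, Hes1 from -0.20 to -0.16, Notch1 from -0.49 to -0.05 and Nrarp from -0.46 to -0.25, while Notch2 ran from 0.06 to 0.24. The sign turned over those fits for Notch3 (-0.74 to 0.15), Notch4 (-0.57 to 0.0824), Jag1 (-0.10 to 0.10), Jag2 (-0.40 to 0.10), Hey1 (-0.42 to 0.0777) and Adam10 (-0.0242 to 0.0305, and -9.56e-05 with the stricter filter). With the Y-linked share as covariate Nrarp was -0.0707 (SE 0.324) and Notch1 -0.454 (SE 0.491). Dll4 was then -0.336 (SE 0.397), Dll1 -0.461 (SE 0.424) and Hes1 -0.174 (SE 0.318). In that fit the sign turned for Notch2 (-0.0759), Ctbp1 (0.0763), Neurl3 (0.0428), Mib2 (0.0306) and Adam17 (-0.0376). Relative to the endothelial markers it turned for Notch4 (0.0176), Jag1 (0.252), Jag2 (0.11), Hes1 (0.0765) and Hey1 (0.0907). Dividing by the same endothelial sum moved every member up by a similar amount (Notch2 from 0.15 to 0.404, Dll4 from -0.44 to -0.198). The turns on that scale, and the 6 members above 0, thus follow from the denominator. The cause of the other turns was not tested. No paired analysis was possible because the labels give letters and no numbers that pair the libraries. A term setting B and D apart from E and F, a split taken from earlier results of these data and not from the labels, lowered the SE (Notch1 0.0867 against 0.188, Notch3 0.118 against 0.323) and called 0 genes (smallest adjusted p among members 0.799 in edgeR). Every member had at least 1524 counts in each library.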
